A study of Mus musculus with 42 samples.

Results

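Pttg1 encodes securin. It was read here as the transcript level in aorta and skeletal muscle of healthy C57BL/6 mice and of diabetic KK/Ay mice. The gene was chosen by its level in the diabetic KK/Ay mice, which was far below that in the healthy mice, so that difference is described and not tested. It is 1 of 21186 genes with a symbol on the array, and a single probe of 41174 noncontrol probes reads it. The series holds 42 single-colour Agilent arrays in 7 groups, with 3 arrays of each tissue in every group. All mice were adult males, and the study's methods give 3 mice per group for the arrays, out of a larger group. The healthy group (G) was C57BL/6 and the diabetic group (A) was spontaneously diabetic KK/Ay, and both were given saline by gavage. The macroangiopathy group (C) was KK/Ay fed a high-fat diet with the nitric oxide synthase inhibitor L-NAME in the drinking water, and it also received saline. The SHENQI (B), yangyinyiqi (D), huoxue (E) and rosiglitazone (F) groups had the same diet and L-NAME and were then dosed by gavage, the first 3 with herbal preparations and the last with a thiazolidinedione drug that lowers blood glucose. Every comparison of a KK/Ay group with the healthy group is also a comparison of mouse strains, so strain and disease cannot be told apart.

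Securin binds and inhibits separase (Espl1), the protease that cuts the cohesin ring holding sister chromatids together. When all chromosomes are attached to the spindle, the anaphase-promoting complex with its activator Cdc20 marks securin for destruction, separase is released and the chromatids part. Securin was first found as a transforming gene in pituitary tumours and is usually abundant in dividing cells, whereas most cells of the adult aortic wall and of skeletal muscle fibres do not divide. In bulk tissue, fewer cells that make a transcript and less transcript per cell cannot be told apart.

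The probe that carries all values below is A_51_P371190, at chr11:43233801-43233860 of mouse build mm9, on the minus strand, as the array design gives it. Pttg1 is Entrez gene 30939. The probe spans the end of the coding sequence and the start of the 3′ untranslated region, so its first 30 of 60 bases are shown because they place the reading: 9 codons of the Pttg1 reading frame, then the stop codon in capitals (bases 28 to 30).

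Pttg1 probe, bases 1 to 30: ccgcctgtttgttacgatgcagatattTAA

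With 1 probe, a change in the mRNA and a sequence difference between strains under the probe could not be separated by a second reading of the gene, and this was not tested. The spot was well above background on 42 of 42 arrays, was flagged as irregular on 0 and was saturated on 0. Its raw signal was 5885.5 to 14278.5 in the 6 healthy arrays, or 131 to 476 times the local background. In the 36 KK/Ay arrays it was 222 to 8188.5 with a median of 462.75, or 4.89 to 164 times the background. On the normalised scale Pttg1 lay between the 97.2nd and 98.7th percentile of genes on the healthy arrays and between the 70.5th and 97.8th on the KK/Ay arrays. The low readings were therefore measured signals and not readings at background.

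Some arrays stood apart from their own set before any comparison. All 7 aortic wall markers (such as Myh11 and Acta2) were above background in every aorta set and all 6 skeletal muscle markers (such as Acta1 and Ckm) in every muscle set. The markers of each tissue were also above background in every set of the other, so detection alone did not tell the tissues apart. Summed skeletal muscle markers were 709751 to 949914 normalised intensity units on muscle arrays. They were 3251 to 405023 on aorta arrays, the highest being diabetic aorta replicate 2. Healthy aorta replicate 1 had a summed aortic marker level of 9334, against 110189 and 54868 in healthy aorta replicates 2 and 3. It also had the highest lymphocyte marker sum of all aorta arrays (1439), and a median correlation of 0.852 with the other aorta arrays. SHENQI skeletal muscle replicate 2 and SHENQI aorta replicates 1 and 2 stood apart in Pttg1 itself. The SHENQI comparison, the tissue difference in KK/Ay and the correlations with mitotic genes are given with and without some or all of these SHENQI arrays. Those arrays were left out for their Pttg1 values, after the data were seen, so results without them are a description.

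Pttg1 was one of the brighter transcripts of healthy tissue. In healthy aorta it read 12.54, 12.89 and 13.00 (normalised log2 intensity, replicates 1 to 3), a mean of 12.81 ± 0.24 (SD, n = 3). In healthy skeletal muscle it read 13.74, 13.87 and 12.94, a mean of 13.51 ± 0.50 (SD, n = 3). The ranges of the tissues overlapped in healthy mice, and healthy aorta replicate 1, which stood apart in its markers, lay close to the other aorta arrays in Pttg1.

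In the diabetic group Pttg1 was low on every array of both tissues. Aorta read 9.44, 9.10 and 9.32, a mean of 9.29 ± 0.17 (SD, n = 3) and 8.68% of the healthy aorta mean, 11.5-fold lower. Skeletal muscle read 8.72, 8.83 and 8.52, a mean of 8.69 ± 0.15 (SD, n = 3) and 3.53% of the healthy muscle mean, 28.3-fold lower. No diabetic array came near a healthy one. Over both tissues the log2 difference from healthy was -4.18, the rank 2 decrease among 14808 genes tested in that comparison, in which 4.47% of genes had a Benjamini-Hochberg adjusted p below 0.05 in limma. These values chose the gene and nothing is read from them.

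Macroangiopathy mice, with the high-fat diet and L-NAME, had a similarly low level. Aorta read 9.21, 9.50 and 9.74, a mean of 9.48 ± 0.26 (SD, n = 3) and 9.95% of healthy. Skeletal muscle read 8.80, 8.96 and 8.67, a mean of 8.81 ± 0.15 (SD, n = 3) and 3.84% of healthy. The arrays of the groups did not overlap. The log2 difference from healthy was -4.02, the rank 3 decrease among 15741 genes, of which 4.95% were called in either direction. It rests on the same healthy arrays as the diabetic comparison.

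**Figure D1:**
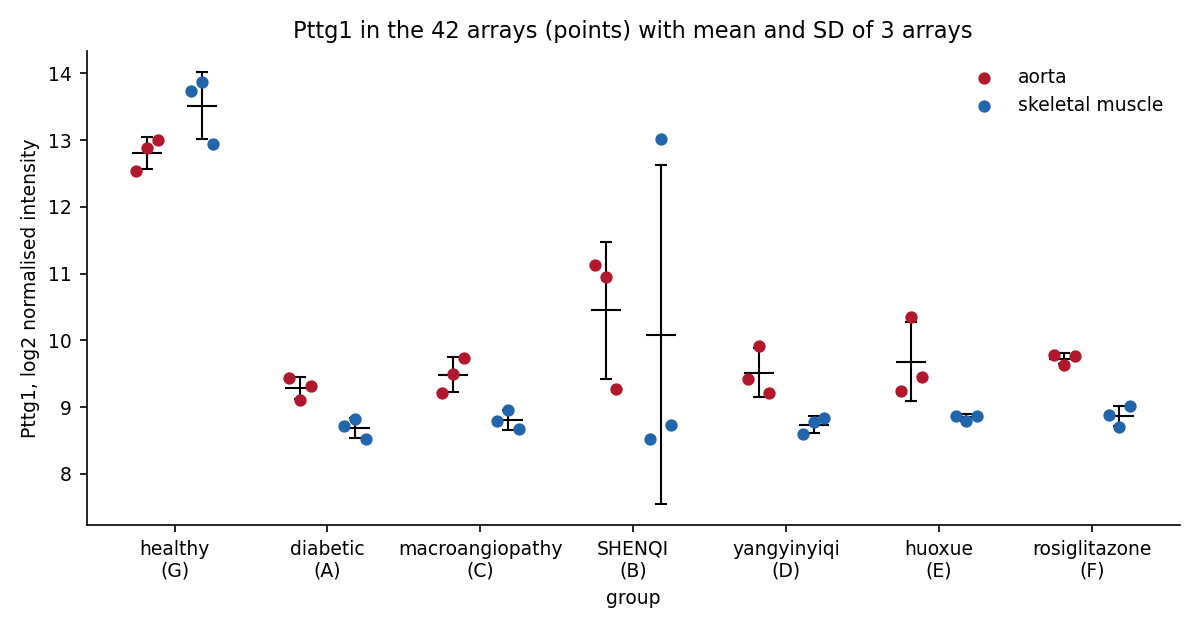
Normalised log2 intensity of the Pttg1 probe (y axis) in the 42 arrays by group (x axis), with 1 point per array, aorta in red and skeletal muscle in blue, and black bars for the mean and SD of each set of 3. Healthy arrays lie at 12.54 to 13.87, and SHENQI skeletal muscle replicate 2 at 13.01 is the KK/Ay array that reaches them.

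In the yangyinyiqi, huoxue and rosiglitazone groups Pttg1 lay mostly among the values of the untreated KK/Ay groups. Yangyinyiqi aorta read 9.42, 9.92 and 9.21 and its muscle 8.60, 8.78 and 8.84. Huoxue aorta read 9.24, 10.35 and 9.45, and its muscle 8.87, 8.79 and 8.87. Rosiglitazone aorta read 9.78, 9.63 and 9.77 and its muscle 8.88, 8.70 and 9.01. Huoxue aorta replicate 2 was the one high value of these 18 arrays, at 18.2% of the healthy aorta mean. As set means, aorta was at 10.2%, 11.4% and 11.8% of healthy and muscle at 3.65%, 3.93% and 3.98% in the yangyinyiqi, huoxue and rosiglitazone groups. Over the 15 aorta arrays of the 5 KK/Ay groups other than SHENQI, Pttg1 ranged from 9.10 to 10.35 with a median of 9.45, and over their 15 muscle arrays from 8.52 to 9.01 with a median of 8.80.

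SHENQI arrays were the exception, with the 2 largest SDs of the 14 sets. SHENQI aorta read 11.13, 10.96 and 9.27, a mean of 10.45 ± 1.02 (SD, n = 3). SHENQI skeletal muscle read 8.52, 13.01 and 8.73, a mean of 10.09 ± 2.53 (SD, n = 3). Aorta replicates 1 and 2 stood at 31.1% and 27.6% of the healthy aorta mean and replicate 3 at 8.59%. Muscle replicate 2 stood at 70.5% of the healthy muscle mean, inside the healthy range of 12.94 to 13.87, with replicates 1 and 3 at 3.13% and 3.63%. These 3 were the 3 highest Pttg1 readings of the 36 KK/Ay arrays, and huoxue aorta replicate 2 was next.

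Ordered by mean, the 14 sets ran from healthy skeletal muscle and healthy aorta through SHENQI aorta, SHENQI skeletal muscle, then rosiglitazone, huoxue, yangyinyiqi, macroangiopathy and diabetic aorta, to rosiglitazone, huoxue, macroangiopathy, yangyinyiqi and diabetic skeletal muscle. Neighbours in that order had overlapping arrays with 2 exceptions. Healthy aorta lay 2.36 (log2 difference) above SHENQI aorta with no overlap, and diabetic aorta lay 0.42 above rosiglitazone muscle with no overlap. Healthy muscle lay 0.70 above healthy aorta, more than their pooled SD of 0.39, but with overlapping arrays. The remaining adjacent sets differed by less than their pooled SD.

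The arrays were run on 11 slides, and some slides held more than 1 group of a tissue. On the slide with healthy, diabetic and SHENQI aorta, the diabetic array differed from the mean of the 2 healthy arrays by -3.34 (log2 Pttg1) and the SHENQI array by -1.65. On a second slide the mean of the 2 SHENQI aorta arrays differed from the healthy one by -2.78. On the slide with healthy and rosiglitazone muscle, Pttg1 in rosiglitazone differed by -4.94 (2 against 2 arrays). These differences belong to the same contrast that chose the gene, or share its healthy arrays, and are given as values. SHENQI muscle replicate 2 shared its slide with SHENQI muscle replicate 3 (8.73) and macroangiopathy muscle replicates 1 and 2 (8.80 and 8.96), and none of these was high.

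Whether diet with L-NAME, or any treatment, moved Pttg1 within KK/Ay was tested with limma over all genes, with tissue as a term. Macroangiopathy against diabetic gave a log2 difference of 0.16 (SE 0.10, 95% interval -0.06 to 0.37, adjusted p = 0.980). The diabetic arrays are among those on which the gene was chosen. In that comparison 0% of 15722 genes were called by limma, with 751 at an unadjusted p under 0.05. No difference was detected, and the interval reached from a slight decrease to a rise of 0.37.

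Against macroangiopathy, SHENQI gave 1.12 (SE 0.69, 95% interval -0.39 to 2.64, adjusted p = 0.999), in a comparison with 0% of 15663 genes called by limma and 418 at an unadjusted p under 0.05. The mean rested on muscle replicate 2: without it the difference was 0.46 (SE 0.35, 95% interval -0.33 to 1.24, adjusted p = 0.99990). Without aorta replicates 1 and 2 as well it was -0.20. The interval spans no change and a rise of several fold.

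Yangyinyiqi gave -0.02 (SE 0.12, 95% interval -0.29 to 0.25, adjusted p = 0.99996), with 0% of 15893 genes called by limma and 559 at an unadjusted p under 0.05. Huoxue gave 0.12 (SE 0.17, 95% interval -0.26 to 0.49, adjusted p = 0.806), with 0.0127% of 15726 genes called. Its sign turned without huoxue aorta replicate 2 (-0.04). Rosiglitazone gave 0.15 (SE 0.09, 95% interval -0.06 to 0.36, adjusted p = 0.581), with 0.177% of 15843 genes called. The intervals of these 3 treatments lay between -0.29 and 0.49. A limma F-test over groups B to F gave an adjusted p of 0.586 for Pttg1 (unadjusted 0.101), with 0.212% of 16072 genes called.

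Within KK/Ay, Pttg1 was higher in aorta than in skeletal muscle. The aorta arrays lay wholly above the muscle arrays of the same group by 0.60 (log2) in diabetic, 0.67 in macroangiopathy, 0.78 in yangyinyiqi, 0.84 in huoxue and 0.86 in rosiglitazone mice. SHENQI arrays overlapped between tissues, with a mean difference of 0.36. Over the 36 KK/Ay arrays, limma with group as a term gave 0.69 (SE 0.24, 95% interval 0.19 to 1.18, adjusted p = 0.0119). Without SHENQI muscle replicate 2 it was 0.90 (SE 0.14, 95% interval 0.62 to 1.17, adjusted p = 6.14e-07), and without all SHENQI arrays 0.75 (SE 0.09). With slide as a random block the difference was 0.67 and its adjusted p was 0.0671, so the call was lost. A tissue difference was the rule for these samples, with 78.6% of 16115 genes called, so the call says nothing particular about Pttg1.

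In healthy mice the direction was opposite, aorta minus muscle -0.70 (SE 0.28, 95% interval -1.40 to -0.0042, limma adjusted p = 0.203, unadjusted p = 0.0490), in a comparison with 8.12% of 14131 genes called. It did not pass the threshold, and whether it differs from the KK/Ay value was not tested. No treatment difference was shown to depend on tissue. The limma interaction terms, as the difference in aorta minus that in muscle, were 0.08 (SE 0.20) for macroangiopathy against diabetic, -0.31 (SE 1.44) for SHENQI, 0.11 (SE 0.26) for yangyinyiqi, 0.16 (SE 0.35) for huoxue and 0.19 (SE 0.19) for rosiglitazone. Their adjusted p values ran from 0.659 to 0.99986. The shares of genes called in these 5 limma interaction tests were 0% (713 at an unadjusted p under 0.05), 0% (294), 0% (242), 4.06% and 2.39%.

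**Figure D2:**
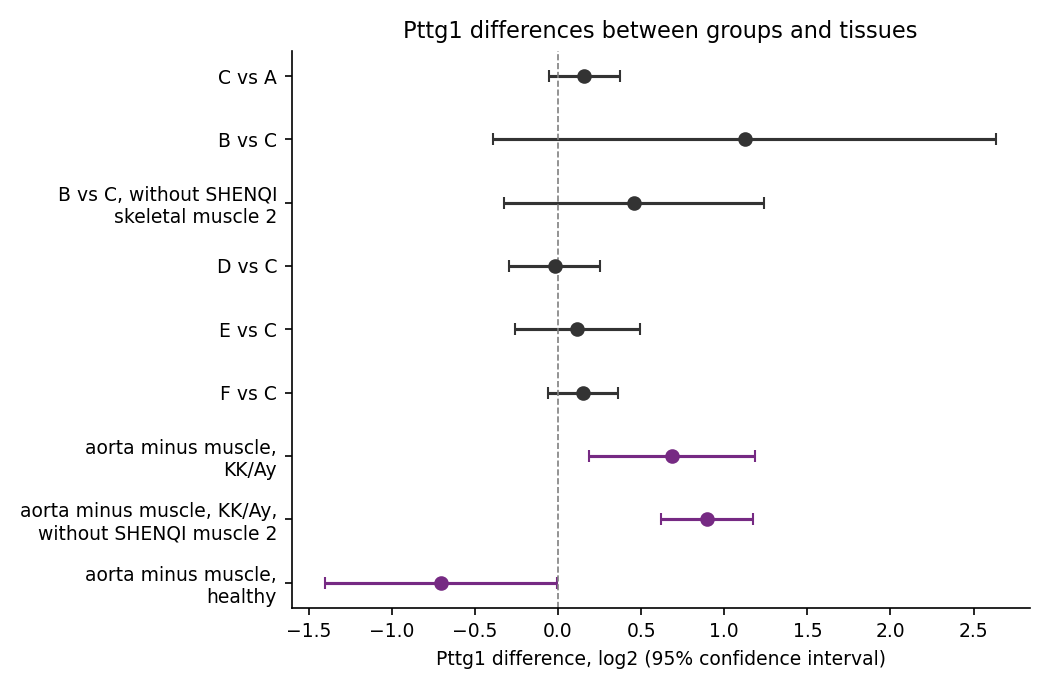
Log2 differences in Pttg1 (x axis) for each tested comparison between groups (black) and between tissues (purple), with the limma estimate as a point and its 95% interval as a bar. The SHENQI interval runs from -0.39 to 2.64 and narrows to -0.33 to 1.24 without SHENQI muscle replicate 2, and the tissue differences are 0.69 in KK/Ay and -0.70 in healthy mice.

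The single high muscle array was examined gene by gene. Against the mean of the other 2 SHENQI muscle arrays, Pttg1 in replicate 2 was 4.39 (log2) higher, and 0 of 16107 genes were further away. Next came 1500010J02Rik (-3.10), 1700020D05Rik (-2.96), Slc47a1, an organic cation exporter (2.02), and Angptl4, a secreted inhibitor of lipoprotein lipase (1.64). These genes were chosen after their values were seen. The array was otherwise like its tissue, with a median correlation of 0.989 with the other muscle arrays.

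That array read as KK/Ay at some genes where healthy muscle and the other KK/Ay muscle arrays did not overlap. Agouti (a), which the yellow allele carried by KK/Ay mice switches on outside the skin, read 9.56, against 8.98 to 10.22 in the other KK/Ay muscle arrays and 6.85 to 6.89 in healthy muscle. It was above background on 36 of 36 KK/Ay arrays and on 0 of 6 healthy arrays. The major urinary protein gene Mup1 read 7.07, within 6.89 to 7.83 of the other KK/Ay muscle arrays and below 10.40 to 13.13 of healthy muscle. Mup1 was above background on 22 of 36 KK/Ay arrays, so its low readings lie near background. At other genes the array read as healthy. 1700020D05Rik was 7.85, against 10.27 to 11.13 in the other KK/Ay muscle arrays and 7.25 to 7.57 in healthy muscle. Asrgl1, an asparaginase-like enzyme, was 11.40, against 10.03 to 10.37 and 11.36 to 11.59, and Slc47a1 was 9.11, against 6.96 to 7.29 and 8.85 to 9.96. Gdpd3, a glycerophosphodiesterase, was in between, at 10.37 against 11.12 to 11.59 in the other KK/Ay arrays and 7.19 to 7.66 in healthy muscle.

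A position was computed for genes that differed between diabetic and healthy mice, with 0 at the diabetic mean and 1 at the healthy mean of the same tissue, among genes with a limma adjusted p below 0.05 and a difference over 1 (log2) in that tissue. In SHENQI muscle replicate 2 Pttg1 was at 0.90, whereas the median of the 155 muscle genes was 0.04 and 11 of them (7.10%) lay past 0.5, on the healthy side. In the other muscle arrays of the diet and L-NAME groups 2 to 22 genes lay on that side. The genes on the healthy side in this muscle array and in no other were 1700020D05Rik, Asrgl1, Pttg1 and Slc47a1. Other muscle arrays also had genes on that side alone, such as Cfd and Retn in SHENQI replicate 3 and Gmnn in macroangiopathy replicate 3. Having such genes was therefore not particular to this array.

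In SHENQI aorta replicate 1 Pttg1 was at 0.52, with a median of 0.03 over 178 aorta genes and 10 genes past 0.5, and Pttg1 was the gene on the healthy side in that array alone. Other aorta arrays also had genes on that side alone, such as Tmem45b in yangyinyiqi replicate 1. In SHENQI aorta replicate 2 Pttg1 was at 0.47, but so were more of the others: the median was 0.27 and 49 genes (27.5%) lay past 0.5. Huoxue aorta replicate 2 had Pttg1 at 0.30, a median of 0.05 and 27 genes past 0.5. Apart from SHENQI aorta replicate 2, the aorta arrays had 5 to 33 genes past 0.5. A shift also occurred without high Pttg1. Huoxue aorta replicate 1 had 28 such genes with Pttg1 at -0.01, and rosiglitazone aorta replicate 1 had 33 with Pttg1 at 0.14. The high Pttg1 readings thus came with a broad shift in SHENQI aorta replicate 2 and with few other genes in SHENQI aorta replicate 1 and muscle replicate 2.

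**Figure D3:**
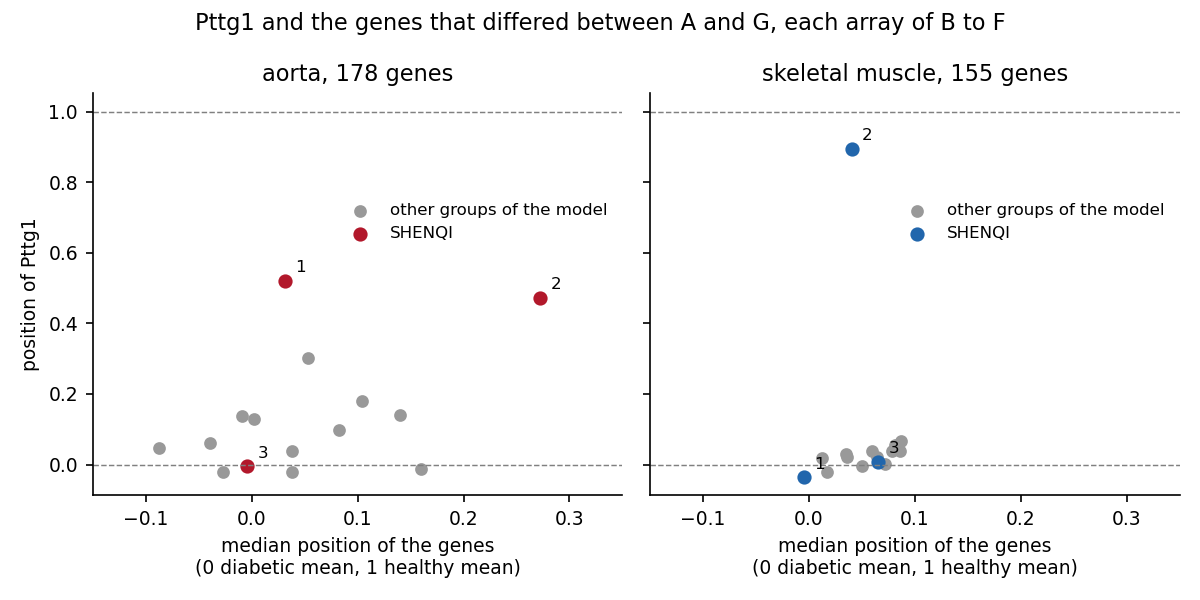
Position of Pttg1 (y axis) against the median position of the genes that differed between diabetic and healthy mice (x axis; 0 is the diabetic and 1 the healthy mean), with 1 point per array of groups B to F, SHENQI arrays coloured and numbered by replicate, for aorta (178 genes) and skeletal muscle (155 genes). Pttg1 is at 0.90 in SHENQI muscle replicate 2 and at 0.52 and 0.47 in SHENQI aorta replicates 1 and 2, with medians of 0.04, 0.03 and 0.27.

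Markers of other cell types moved with some of these arrays. The sum of 3 lymphocyte markers (Cd79a, Cd3e and Cd3g) was 1211 in SHENQI aorta replicate 2, 1072 in huoxue aorta replicate 2 and 900.2 in yangyinyiqi aorta replicate 2, against 397 to 616 in the other KK/Ay aorta arrays. The highest Pttg1 of huoxue and of yangyinyiqi aorta fell on those arrays. SHENQI aorta replicate 1 had a lymphocyte sum of 447, among the low values, and the highest sum of 3 heart markers (46970, against 374 to 35281 in the other KK/Ay aorta arrays). Across the 18 KK/Ay aorta arrays, which share groups and slides, the correlation of Pttg1 with the lymphocyte sum was 0.62 and with the brown fat marker sum -0.54. These were the extremes, and the other marker sums gave values from -0.25 to 0.15. All these correlations include SHENQI aorta replicates 1 and 2 and are not given without them. In SHENQI muscle replicate 2 the lymphocyte sum was 422, within the 401 to 464 of KK/Ay muscle, and its Pttg1 was high at that level. At least 2 of the 3 lymphocyte markers were above background on all 3 arrays of every aorta set, and their part in the Pttg1 levels was not tested.

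The chromosome segregation machinery was read as a list. Of 40 listed genes of cohesin, separase, the spindle checkpoint and the anaphase-promoting complex, 37 were tested. In diabetic against healthy 1 was higher and 0 lower at an adjusted p below 0.05 in limma (3 at an unadjusted p under 0.05). In macroangiopathy against healthy 0 were called in limma (4 at an unadjusted p under 0.05). Over all genes tested 4.47% and 4.95% were called, with 3170 of 14808 and 3689 of 15741 at an unadjusted p under 0.05, so the count called in the list was near the background. The median log2 difference was 0.00 and -0.06, beside 0.02 and 0.01 over all genes tested. The called gene was Anapc5, a subunit of the anaphase-promoting complex, at 12.75 to 12.91 in healthy and 13.30 to 13.62 in diabetic aorta and 13.86 to 14.30 and 14.36 to 14.51 in muscle (difference 0.45, SE 0.10, limma adjusted p = 0.0339). Its call was lost without any one of healthy aorta replicate 3, healthy muscle replicate 1, diabetic aorta replicates 2 and 3 and the 3 diabetic muscle arrays, each of which left 0 genes of the list called, while 2 were called without healthy aorta replicate 1.

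Securin's direct partners were not called. Espl1 (separase) was close to background, above it on 22 of 42 arrays, with a log2 difference of -0.04 (limma adjusted p = 0.719) in diabetic against healthy. Pttg1ip, the securin-binding factor that carries it to the nucleus, differed by -0.07 (adjusted p = 0.827) and Fzr1, the other activator of the anaphase-promoting complex, by 0.03 (adjusted p = 0.848). The Pttg1ip value averaged opposite differences: its mean was 11.66 in healthy and 11.95 in diabetic aorta, with overlapping arrays, and 11.04 and 10.61 in muscle, with no overlap. Cdc20 differed by -1.24 (SE 0.57, limma adjusted p = 0.234), with healthy arrays spread from 7.68 to 11.08 in aorta and from 7.98 to 10.49 in muscle, and diabetic arrays from 7.74 to 8.10 and from 7.44 to 7.90. The healthy aorta range held all of the diabetic one, and the muscle ranges did not overlap.

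Among 10 partners and targets of Pttg1, 1 was lower in diabetic against healthy and in macroangiopathy against healthy, and 0 were higher, beside 4.47% and 4.95% of all genes called in either direction. At an unadjusted p under 0.05 there were 3 in each comparison. The called gene was Cdkn1a, the cyclin-dependent kinase inhibitor p21. It fell from 11.18 to 11.82 in healthy aorta to 7.97 to 8.13 in diabetic aorta, and from 10.66 to 12.51 in healthy muscle to 8.99 to 9.09 in diabetic muscle. The log2 difference was -2.91 (SE 0.32, limma adjusted p = 0.000623), and in macroangiopathy -2.73 (SE 0.32, adjusted p = 0.00140). The healthy arrays are shared between both. The median difference of the list was -0.06 and -0.10. Myc differed by -0.65 in the diabetic group (adjusted p = 0.184) and Trp53 by -0.68 (adjusted p = 0.330), and both were named after their values were seen.

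Genes of dividing cells were read to place securin beside them. Of 36 mitotic genes 24 were tested in diabetic against healthy and 30 in macroangiopathy against healthy, and 1 was lower in each and 0 were higher, near the 4.47% and 4.95% of all genes called. The macroangiopathy call was lost with slide as a random block and with the replicate number as a block (0 genes in each). The median log2 difference was -0.42 and -0.34, beside 0.02 and 0.01 over all genes tested. In the list 22 of 24 and 28 of 30 values were negative, and the share over all genes is not given. At an unadjusted limma p under 0.05 there were 7 of 24 and 4 of 30 genes, all lower, beside 3170 of 14808 and 3689 of 15741 over all genes. In healthy aorta the mean of the list was 9.20 in replicate 1, which stood apart in its markers, and 7.44 and 7.56 in replicates 2 and 3. Diabetic aorta read 7.45 to 7.53. In muscle the mean was 7.60 to 8.38 in healthy and 7.46 to 7.64 in diabetic mice. The list medians and the counts of negative values are not given without healthy aorta replicate 1. The called gene was Mcm6, a subunit of the replicative helicase, at 10.79 to 13.41 in healthy and 8.90 to 9.43 in diabetic aorta and at 9.93 to 11.32 and 8.24 to 9.08 in muscle (-2.34, SE 0.43, limma adjusted p = 0.0135). Mki67, the proliferation antigen, differed by -1.28 (SE 0.64, adjusted p = 0.275), with healthy aorta arrays from 7.46 to 11.64. Top2a, which untangles DNA before anaphase, was tested in the macroangiopathy comparison (-0.26, adjusted p = 0.385). Ccnb1, the mitotic cyclin, was above background on 10 of 42 arrays and was not tested.

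**Figure D4:**
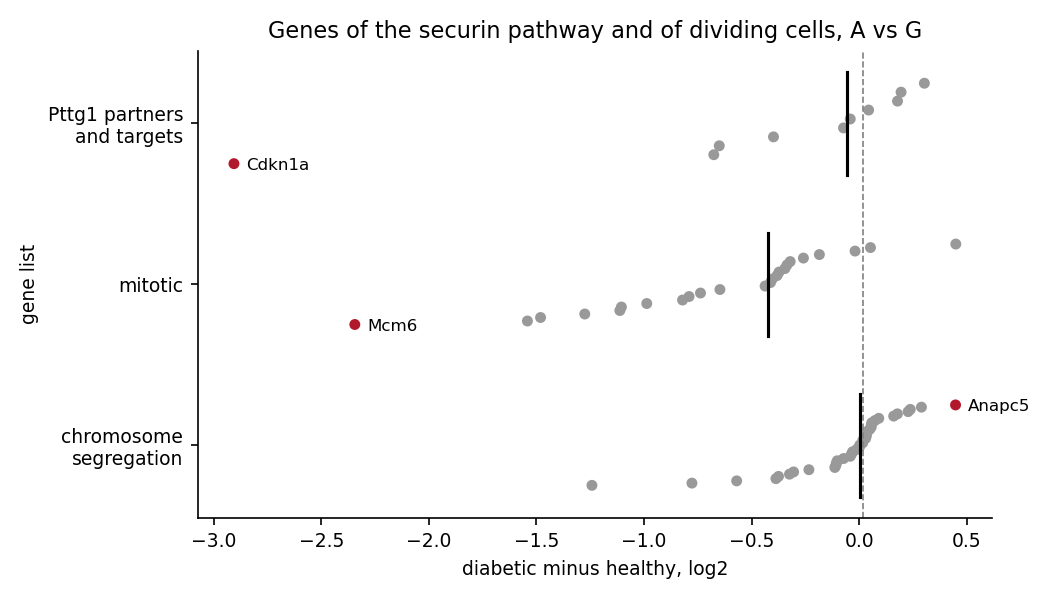
Log2 differences between diabetic and healthy mice (x axis) of the tested genes of 3 lists (y axis), with 1 point per gene, red where the limma adjusted p was below 0.05, a black line at each list median and a dashed line at the median of all genes tested. The medians are -0.06, -0.42 and 0.00 from top to bottom, and Cdkn1a (-2.91), Mcm6 (-2.34) and Anapc5 (0.45) are the called genes.

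The mean log2 value of the mitotic genes ranged from 7.44 to 9.20 in the healthy aorta arrays and from 7.60 to 8.38 in healthy muscle, while Pttg1 stayed between 12.54 and 13.87. In KK/Ay mice the mean ranged from 7.38 to 8.23 in aorta. In KK/Ay muscle it ranged from 7.44 to 7.64, SHENQI replicate 2 with its Pttg1 of 13.01 included. The mean took in all 36 listed genes, also those too near background to be tested, such as Ccnb1. The gap in Pttg1 chose the gene, so nothing is read from it about the mitotic level.

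Within KK/Ay, Pttg1 was set against the mitotic mean across the 18 arrays of each tissue, 2 relations in all. In aorta Pearson r was 0.53 (two-sided permutation p = 0.0225, adjusted 0.0451) and Spearman rho 0.29 (permutation p = 0.236, adjusted 0.236). Without the 2 arrays farthest from the median mitotic level r was 0.15 (permutation p = 0.549), so the relation rested on those arrays. Without SHENQI aorta replicates 1 and 2 r was 0.76 (permutation p = 0.000940) and rho 0.39 (permutation p = 0.133). In muscle r was -0.02 (permutation p = 0.945) and rho 0.55 (permutation p = 0.0190, adjusted 0.0380). Without SHENQI muscle replicate 2 they were 0.67 (permutation p = 0.00278) and 0.68 (permutation p = 0.00312). The SHENQI arrays were left out for their Pttg1 values, after the data were seen. The values without them are therefore a description, and their p-values are not read as tests. Without the 2 arrays farthest from the median mitotic level r in muscle was 0.01. The permutations moved values freely among the 18 arrays and kept neither group nor slide. The p-values therefore treat arrays that share a group or a slide as independent. Slides hold too few arrays of a tissue to give a value within each.

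Genes beside Pttg1 on chromosome 11 were read to see whether the low level extended along the chromosome. Of 45 genes with a probe within 5 Mb, 29 were tested in diabetic against healthy and 30 in macroangiopathy against healthy. In each, 1 was higher and 0 lower in limma, near the 4.47% and 4.95% of all genes called, with 8 and 10 at an unadjusted p under 0.05. Both calls were lost with slide as a random block (0 genes in each). The median log2 difference was -0.08 (range -0.67 to 1.04) and -0.07 (range -0.61 to 1.18). No tested neighbour had a decrease as large as that of Pttg1. Since Pttg1 was chosen for its large decrease, that was likely in advance, and nothing is read from it about the locus.

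The closest tested gene, Slu7, a splicing factor 17.9 kb away, differed by 0.21 (limma adjusted p = 0.167) and by 0.25 in macroangiopathy (adjusted p = 0.0621). C1qtnf2, a secreted C1q-like protein 70.6 kb away, differed by 1.04 (SE 0.29, adjusted p = 0.0726) and 1.18 (adjusted p = 0.0637). Ccnjl, a cyclin relative 166 kb away, differed by -0.08 (adjusted p = 0.709). These are the 3 nearest tested genes on the side of higher coordinates. On the other side the nearest were Gabrb2, a GABA receptor subunit at -788 kb (-0.01, adjusted p = 0.901), Ccng1, cyclin G1, at -2669 kb (0.29, adjusted p = 0.531), and Nudcd2 at -2681 kb (-0.15, adjusted p = 0.445). The called neighbours were 4933415A04Rik in the diabetic group (0.35, limma adjusted p = 0.0375; 0.22, adjusted p = 0.124 in macroangiopathy) and Pwwp2a, a chromatin protein, in macroangiopathy (0.22, adjusted p = 0.0425; 0.16, adjusted p = 0.206 in diabetic). 9530029O12Rik differed by -0.67 (adjusted p = 0.165) and Ebf1, a B-cell transcription factor, by -0.47 (adjusted p = 0.177). In either comparison 0 neighbours were called without any one of healthy aorta replicate 3, healthy muscle replicates 1 and 2 and each KK/Ay array, and 2 were called without healthy aorta replicate 2.

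**Figure D5:**
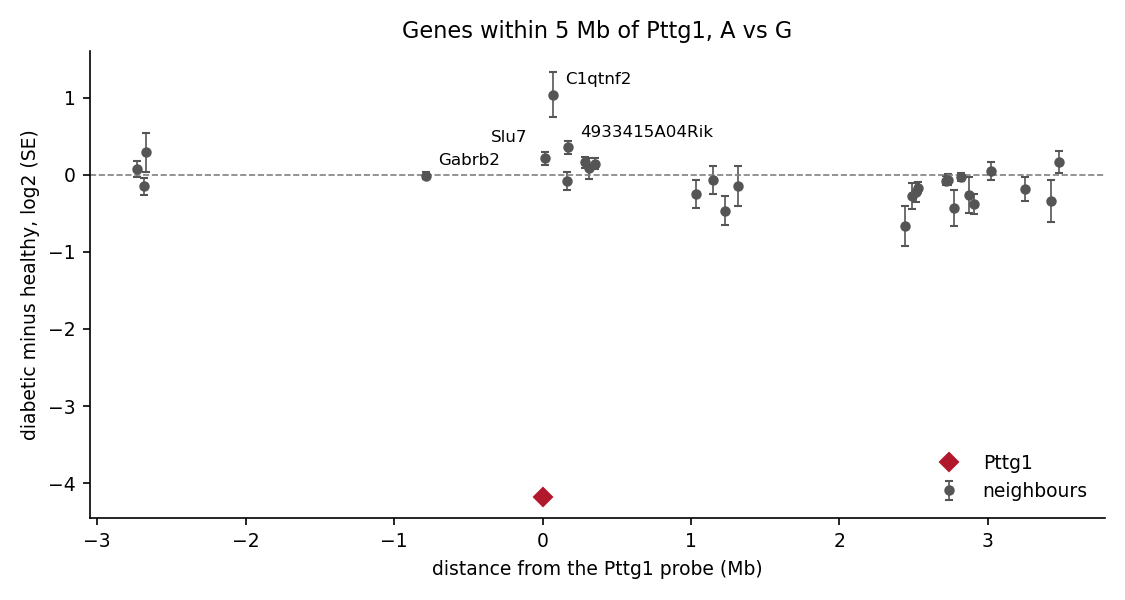
Log2 difference between diabetic and healthy mice (y axis) of Pttg1 and the tested genes within 5 Mb on chromosome 11, against the distance of their probe from the Pttg1 probe (x axis, Mb), with bars for the SE of the neighbours. Pttg1 is at -4.18 and its neighbours lie between -0.67 and 1.04.

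The genes most like Pttg1 were found as those with the highest Pearson correlation over the 42 arrays after each tissue mean was subtracted, among 16106 genes and as a description with no test. They were Asrgl1 (r = 0.92), Thumpd1, an adaptor of tRNA modification (0.92), Stx3, a membrane fusion protein (0.89), Slc47a1 (0.89) and Lrrk1, a protein kinase (0.87). The lowest were 1700020D05Rik (-0.94), Gdpd3 (-0.89), Cnot7, a deadenylase of mRNA (-0.86), Adat2, a tRNA deaminase subunit (-0.86), and Hddc3, a phosphohydrolase (-0.86). As for Pttg1, the healthy arrays of these genes overlapped neither the diabetic nor the macroangiopathy arrays of the same tissue. Pttg1 was chosen for such a gap and the likeness was taken over healthy and KK/Ay arrays together. The separation was therefore likely in advance, and nothing is read from it. The share of all genes without overlap is not given. Thumpd1, for example, read 8.34 to 8.55 in healthy and 7.05 to 7.07 in diabetic aorta. Their probes lie on chromosomes 7, 8, 10, 11 and 19 of mm9, Slc47a1 at chr11:61157170-61157229 being the one on the chromosome of Pttg1.

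The likeness within KK/Ay, over 36 arrays after the mean of each group and tissue was subtracted, was highest for Slc47a1 (0.86), Asrgl1 (0.85), Racgap1, a GTPase activator of cytokinesis (0.80), Stx3 (0.75) and 5830458C19Rik (0.72). It rested largely on SHENQI muscle replicate 2. Without that array the correlations were -0.08, 0.60, 0.51, 0.21 and -0.04 in the same order, so Asrgl1 and Racgap1 were the ones with a value above 0.5 in both. Racgap1 was above background on 21 of 42 arrays and 5830458C19Rik on 25.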

How the data were processed

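Total RNA of aorta and skeletal muscle was hybridised by the authors to 42 single-colour Agilent arrays and scanned, and Feature Extraction (version 10.7 per the labels) gave the deposited spot intensity values, which were not yet normalised. The authors also deposited log2 values of 41267 probes after background correction and quantile normalisation (array median 5.36, centring not stated), and these were used as an alternative. Values here came from the median spot intensity: normexp background correction (offset 0) over all 45018 spots, removal of 1639 control spots, quantile normalisation over 42 arrays, then log2. Irregular spots were set missing, spots of a probe and probes of a gene were averaged, and a gene was tested if, in some set of the comparison, a probe of it passed Agilent's background test in each of the 3 arrays. Tests used limma 3.58.1 in R 4.3.3 (lmFit, eBayes, tissue as a term, Benjamini-Hochberg adjustment, threshold 0.05), and the package data.table (version 1.17.8). Group labels came from the sample titles. The study's methods name 3 mice per group, the labels tie no array to a mouse, and p-values measure the spread between these arrays, whose number limits the precision. No pair of the 861 array pairs held identical values. Pttg1, the gene lists and the markers were chosen with earlier results of these data known. From those lists the text names, by a fixed rule, Pttg1, genes with an adjusted p below 0.05, a set of core mitotic genes, the nearest neighbours and the 6 with the smallest adjusted p, and the genes of highest and lowest likeness. Some genes that the rule or the marker lists hold are not reported here. The limma fit of diabetic against healthy was run on simulated normalised log2 values with known changes in 200 genes. The other steps were not run on simulated data. Alternatives were another background offset, Agilent's processed signal less its 75th percentile, the deposited table, normalisation within tissue, log2 before normalisation, the brightest probe, each tissue alone, no tissue term, all arrays in one fit, slide as a random block, other filters, a trended robust fit, the replicate number as a block and leaving out each array. Gene names came from the 8 array files that carry them.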

Additional observations from a re-analysis of the deposited data

How the results depend on the processing

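Most values kept their direction and their side of the threshold. Macroangiopathy against diabetic Pttg1 stayed between 0.12 and 0.23 (log2) over 15 alternatives and between 0.10 and 0.21 without each array, and never passed. Against macroangiopathy, SHENQI ranged from 0.46 to 1.45 without each array, lowest without SHENQI muscle replicate 2, and was -0.20 without the 3 SHENQI arrays that stood apart, an alternative chosen after seeing the data. Yangyinyiqi was 0.035 in aorta alone and ranged from -0.11 to 0.043 without each array. Huoxue ranged from -0.041 to 0.21, and rosiglitazone from 0.08 to 0.20. The adjusted p of the F-test over groups B to F ranged from 0.361 to 0.869 without each array. None of these passed under any alternative. The aorta minus muscle difference in KK/Ay ranged from 0.63 to 0.95 over 12 alternatives and lost its call with slide as a random block (0.67, adjusted p = 0.0671). Without each array it ranged from 0.59 to 0.90, and that of healthy mice from -0.99 to -0.53 and never passed. The diabetic difference from healthy, a description, ranged from -4.82 in muscle alone to -3.53 in aorta alone.

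Calls among the lists were few and depended on the setting. In diabetic against healthy, the 1 segregation gene became 0 with Agilent's processed signal, the deposited table, log2 before normalisation, either tissue alone, no tissue term and a trended robust fit, and 4 with all 42 arrays in one fit. The 1 mitotic gene became 0 in aorta alone, 2 in muscle alone and 13 with all 42 arrays. The 1 partner became 4 with all 42 arrays. The 1 neighbour became 0 with the processed signal, the deposited table, the brightest probe, aorta alone, no tissue term and slide as a random block, and 8 with all 42 arrays. In macroangiopathy against healthy, the 0 segregation genes became 5 with all 42 arrays. The 1 mitotic gene became 0 in aorta alone and with slide as a random block, 2 in muscle alone and 8 with all 42 arrays. The 1 partner became 0 in muscle alone and 3 with all 42 arrays. The 1 neighbour became 0 with normalisation within tissue, aorta alone, no tissue term, slide as a random block and a stricter filter, 2 with log2 before normalisation, an alternative chosen after seeing the data, and 9 with all 42 arrays. Without each array the counts were 0 to 2 and 0 to 1 (segregation), 1 to 2 and 1 to 2 (mitotic), 1 to 1 and 1 to 2 (partners) and 0 to 2 and 0 to 2 (neighbours) in the diabetic and macroangiopathy comparisons. The share of all genes called under these alternatives is not given. A larger count, such as those with all 42 arrays, is therefore not read as an excess in a list. Fits in a single tissue used fewer arrays, and the fit of all 42 used more. Otherwise the cause was not tested.

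The correlation of Pttg1 with the mitotic mean in KK/Ay aorta was 0.51 (adjusted p = 0.0562) with the deposited table, 0.50 (adjusted p = 0.0597) with log2 before normalisation and 0.15 without the 2 arrays farthest from the median. In muscle it was 0.033 with log2 before normalisation, 0.011 without the 2 farthest arrays and 0.67 without SHENQI muscle replicate 2. That last alternative was chosen after the Pttg1 values were seen. Spearman rho in muscle (0.55, adjusted p = 0.0380) lost its call with Agilent's processed signal (adjusted p = 0.0620), the deposited table (rho 0.24, adjusted p = 0.330), log2 before normalisation (adjusted p = 0.0951), the brightest probe (adjusted p = 0.0504) and without the 2 farthest arrays (adjusted p = 0.0796). The cause was not tested.

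Groups share replicate numbers in the titles. Over 126 same-number pairs of sets the correlation of deviations ran from -0.64 to 0.70 and 40 exceeded 0.1, so the arrays were taken to share only a number. Among the higher values were those of aorta replicate 2: 0.70 for SHENQI with yangyinyiqi, 0.68 for yangyinyiqi with huoxue and 0.59 for SHENQI with huoxue. These are the arrays with high lymphocyte sums, and they deviated alike. Why they did was not tested. With the replicate number as a block the Pttg1 differences were the same, with adjusted p of 0.842 for macroangiopathy against diabetic, 0.999 for SHENQI and 0.00904 for tissue in KK/Ay. The block left 0 segregation genes in diabetic against healthy and 0 mitotic genes and 0 neighbours in macroangiopathy against healthy, and changed no other call of these comparisons. Signal did not limit the Pttg1 readings, which were above background on 42 of 42 arrays, but Ccnb1, Top2a, Espl1, Racgap1 and 5830458C19Rik lay near background.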
